A study of Mus musculus with 6 samples.

Results

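Interferon-stimulated genes are the antiviral program that a cell switches on when an interferon reaches its receptor, and 44 of them were followed here in 6 mouse tumours. They were chosen by symbol, and each symbol was matched to 1 Ensembl gene ID, so that 44 of the 54532 gene IDs in the count matrix form the set. All 44 passed the expression filter that left 15203 genes for testing. The tumours grew from G422, a mouse glioblastoma cell line, placed under the skin of Kunming mice, an outbred stock, and no further treatment was given. The cell line label of each sample carries a different number, while titles and source names give G422 for all 6, which was followed. The study is titled as a knockdown of neuroglobin (Ngb), an oxygen-binding globin, and compared 3 tumours of cells labelled shNgb, a hairpin RNA by its name, with 3 tumours of cells carrying the vector, labelled shVec. Both cell populations were made with lentivirus, according to the design text, which names Ngb rather than a hairpin as the insert; the sample labels were followed. The sources used here do not give the age of the mice, the hairpin, or whether each cell population was a pool or a clone.

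Type I interferons act through the receptor chains Ifnar1 and Ifnar2 and the kinases Jak1 and Tyk2, which activate a transcription factor complex that includes Stat2 and Irf9. That complex binds the interferon-stimulated response element (ISRE) in target promoters. Interferon gamma, made mainly by T and NK cells, acts through the receptor chains Ifngr1 and Ifngr2 with the kinases Jak1 and Jak2, and its signal ends at promoters with the gamma-activated sequence (GAS). Many genes of the set answer to both kinds of interferon. In a solid tumour, malignant cells, macrophages, endothelial cells and lymphocytes can all express them.

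The libraries held 21018697, 23913765 and 25620667 reads in the shNgb tumours and 22427004, 20005933 and 19630319 in the shVec tumours. Ngb had 18, 19 and 11 reads in the shNgb libraries, against 28, 23 and 13 in the shVec libraries, and the groups overlapped (log2 fold change -0.59, SE 0.42, edgeR unadjusted p = 0.196). Of the markers of glioma and neural progenitor cells, Nes, Vim and Sox2 were present in every tumour, while Gfap had at most 6 reads in any library and Olig1 and Olig2 had none in all 6. Only 3 of the 9 listed markers, which also include S100b, Fabp7 and Prom1, passed the filter for testing. In each library 2 to 4 of the 9 had no read. The glioblastoma cell type is that of the labels, and these few markers do not establish it. The correlation of log2 levels across genes averaged 0.984 within a group (6 pairs of libraries) and 0.984 between groups (9 pairs).

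The promoters of the set were searched for the letters of both elements. RefSeq promoters (build GRCm38.p6, 250 bases before to 50 after the start) were found for 34 of the 44 genes, with no entry for Parp9, Parp14, Rtp4, Ifi27, Oas2, Dhx58, Zbp1, Mx1, Mx2 and Usp18. The ISRE core, GAAANNGAAA on either strand, occurred in the promoters of 18 of these 34 genes (52.94%), against 1079 of the 27025 genes with a RefSeq promoter (3.99%). The GAS letters, TTCNNNGAA, which read the same on both strands, occurred in 11 of 34 genes (32.35%) against 9.55% of all genes. Both motifs were found in 6 genes and neither in 11, and the 2 kinds of match overlapped in 1 of the 42 promoter windows of the set, that of Bst2. A match is a description of the letters in that window and does not show that a factor binds there.

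Stretches around the ISRE core are shown for members described below, in capitals where the letters match, 5′ to 3′ on the strand of the gene. The naming rule took the 8 named members of smallest unadjusted p that held the core, and Ifit1, Stat2, Oas3, Bst2 and Irgm2 are those of the 8 with a match wholly before the start. Irgm1 and Gbp2, later in that order, held such a match too and are not shown. Isg15, with 3 overlapping matches, and Igtp, the neighbour of Irgm2, were added after their values were seen.
Ifit1, chr19:34640765-34640833, plus strand: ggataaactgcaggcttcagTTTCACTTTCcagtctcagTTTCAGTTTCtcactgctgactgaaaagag
Stat2, chr10:128270256-128270305, plus strand: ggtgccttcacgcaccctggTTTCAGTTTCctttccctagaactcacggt
Oas3, chr5:120777705-120777754, minus strand: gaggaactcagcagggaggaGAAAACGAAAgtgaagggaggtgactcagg
Bst2, chr8:71537567-71537622, minus strand: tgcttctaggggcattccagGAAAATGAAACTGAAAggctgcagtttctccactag
Isg15, chr4:156200855-156200916, minus strand: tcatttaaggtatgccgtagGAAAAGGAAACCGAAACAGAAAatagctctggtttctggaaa
Irgm2, chr11:58214893-58214942, plus strand: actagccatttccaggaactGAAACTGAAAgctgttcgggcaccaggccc
Igtp, chr11:58199502-58199551, plus strand: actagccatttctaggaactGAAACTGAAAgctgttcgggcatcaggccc
The matches of Ifit1 and Stat2 lie on the opposite strand and so appear as the reverse complement of the core. The stretches of Igtp and Irgm2, which encode neighbouring GTPases, were identical in 48 of 50 bases. The match nearest the start ended between 25 bases (Igtp) and 213 bases (Stat2) before it. Ifih1, Ddx58 and Trim21, the rest of the 8, and Eif2ak2 held the core with no match wholly before the start, and no sequence is shown for them.

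Nearly the whole set had a higher mean in the shNgb tumours than in the vector tumours, but the groups overlapped in 41 of the 44 genes. Overlap was about as common over all tested genes, of which 3.67% lay wholly higher and 3.43% wholly lower in shNgb. Of the 44 genes, 43 had a log2 fold change above 0, against 50.9% of all tested genes, and the median was 0.74, against 0.0026 over all tested genes. The 44 genes share the same tumours and are not replicates of one another. The part of the hairpin or of single tumours in this direction was not tested. More expressing cells and more RNA per cell cannot be told apart in bulk tissue. None passed an adjusted p under 0.05 in edgeR, where 0% of the 15203 tested genes did (smallest adjusted p of a member 0.9997). DESeq2, which called 0.0313% of its genes, limma-voom, which called 0%, and edgeR without the filter, which called 0.0108%, also passed 0 of the 44. At an unadjusted p under 0.05, 4 genes were higher in shNgb (Mx1, Ifit1, Samd9l and Herc6), against 1.35% of all tested genes, and 0 were lower, against 1.22%. By the same measure, in either direction, DESeq2 counted 11 of the 44, against 2.74% of the genes it tested, and limma-voom 6, against 2.82%. The 3 shNgb tumours all lay above the 3 shVec tumours in Mx1, Ifit1 and Samd9l, 3 of 44 genes, against 3.67% of all tested genes, and the reverse held for 0 of 44, against 3.43%. A fold of at least 2 was fitted for 7 genes (1.32% of all tested genes reached it), a fold of 1.5 to 2 for 21 and less for 16, and the 95% interval lay above 0 in 4.

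**Figure D1:**
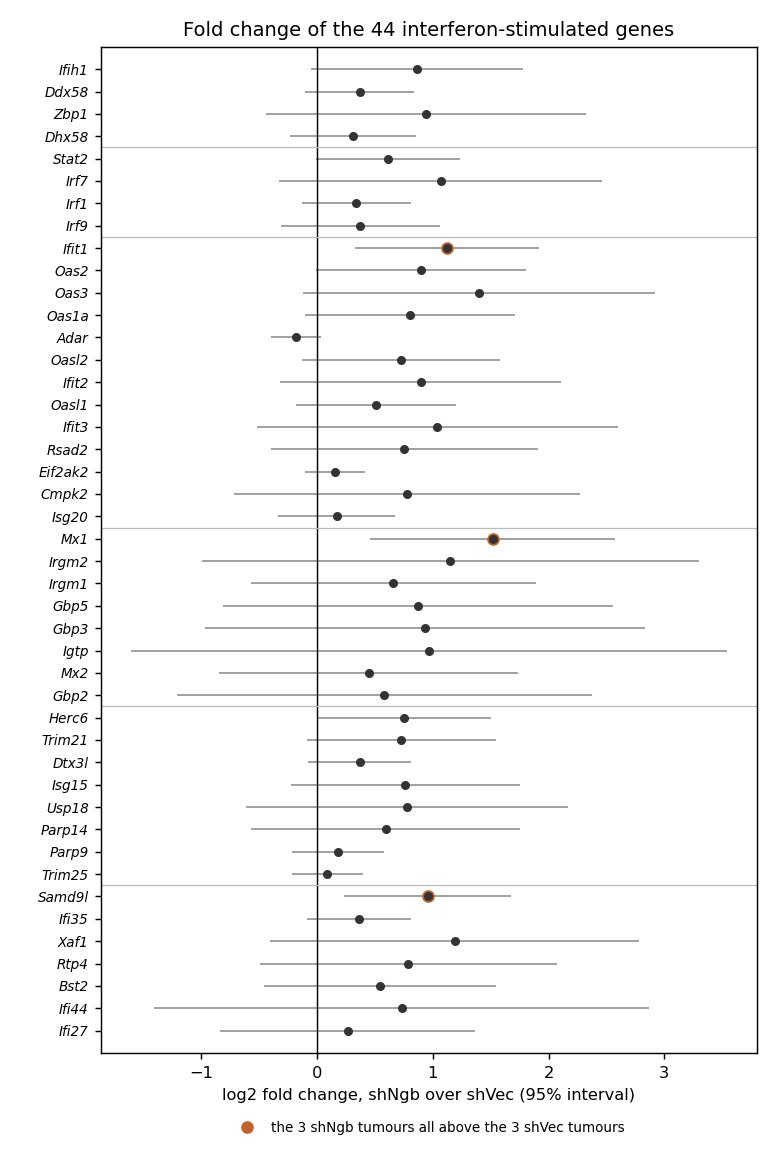
Log2 fold change (shNgb over shVec, horizontal axis) of each of the 44 genes with its 95% interval, grouped by role from sensors at the top to other effectors at the bottom. Larger orange points mark Mx1, Ifit1 and Samd9l, whose 3 shNgb values all exceed the 3 shVec values. All points but Adar lie right of 0 and most intervals span 0.

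The tumours fell in much the same order across the set. The tumour shNgb 3 held the highest level of 39 of the 44 genes, while it was the highest of 6 in 21.9% of all tested genes. The lowest level was found in shVec 1 for 28 genes, in shVec 3 for 12 and in shNgb 1 for 4. The vector tumour shVec 2 exceeded both other vector tumours in all 44 genes, exceeded shNgb 1 in 41 and exceeded shNgb 2 in 25. Summed over the 44 genes, the level was 656, 889 and 1289 CPM in shNgb tumours 1 to 3 and 575, 971 and 579 CPM in shVec tumours 1 to 3, where CPM are counts scaled to library size with the trimmed mean of M values (TMM). The median of the pooled SD between tumours of a group, on the log2(CPM + 0.5) scale, was 0.58 for these genes and 0.17 for all tested genes.

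**Figure D2:**
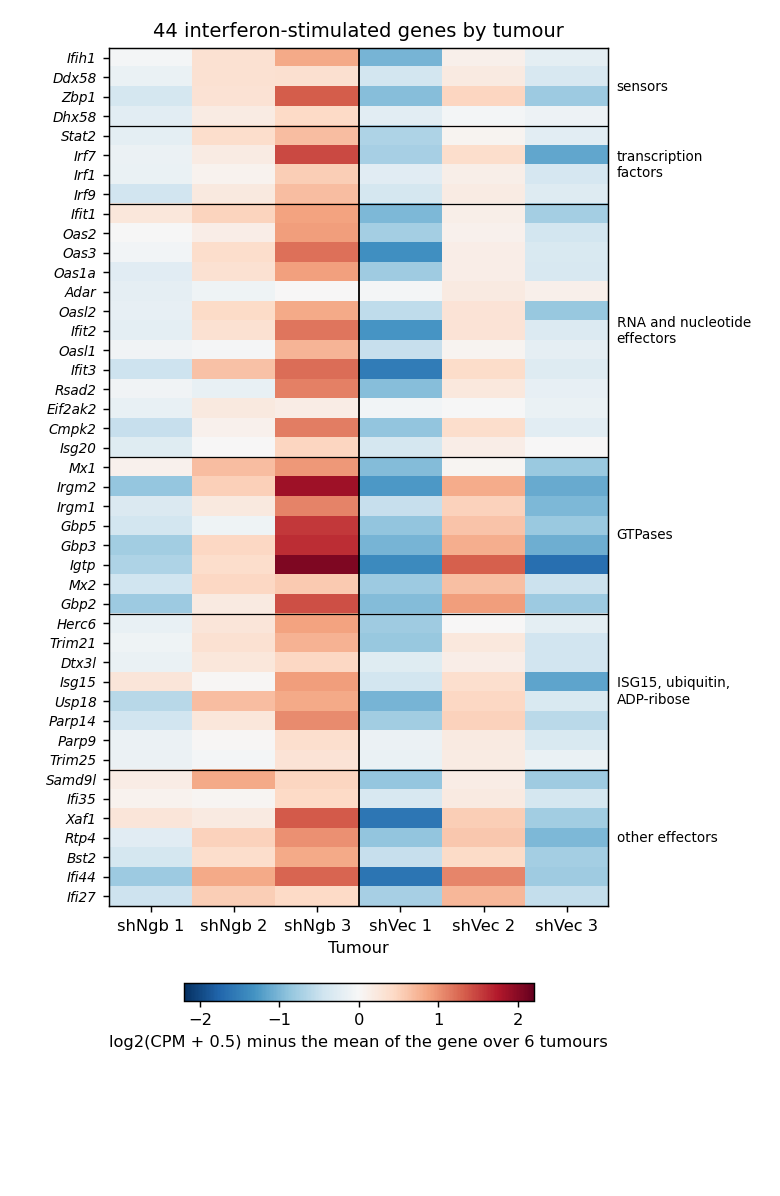
Level of each of the 44 genes (rows, by role) in each tumour (columns, shNgb left of shVec), as log2(CPM + 0.5) minus the mean of the gene over the 6 tumours. The column of shNgb 3 is the highest in 39 rows, and the column of shVec 2 is higher than those of shVec 1 and shVec 3 in all 44 rows.

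Leaving out single tumours moved the set as a whole. The median log2 fold change was 0.23 without shNgb 3, with 37 genes above 0, and 1.20 without shVec 2, with 43 above 0. It was 0.45 without shVec 1, and between 0.51 and 0.96 without each of the others. The number of members at an unadjusted p under 0.05 in edgeR was 4 with all tumours, where 2.58% of all tested genes had one. It was 31 without shVec 2, 16 without shNgb 1 and 2 without shVec 3, and the share of all tested genes moved too, to 4.7%, 4.89% and 1.24% in these fits. In each of these fits 0 of the 44 genes passed the adjusted threshold. Without shNgb 3 the genes below 0 were Adar, Cmpk2, Gbp2, Gbp5, Igtp, Isg20 and Trim25.

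**Figure D3:**
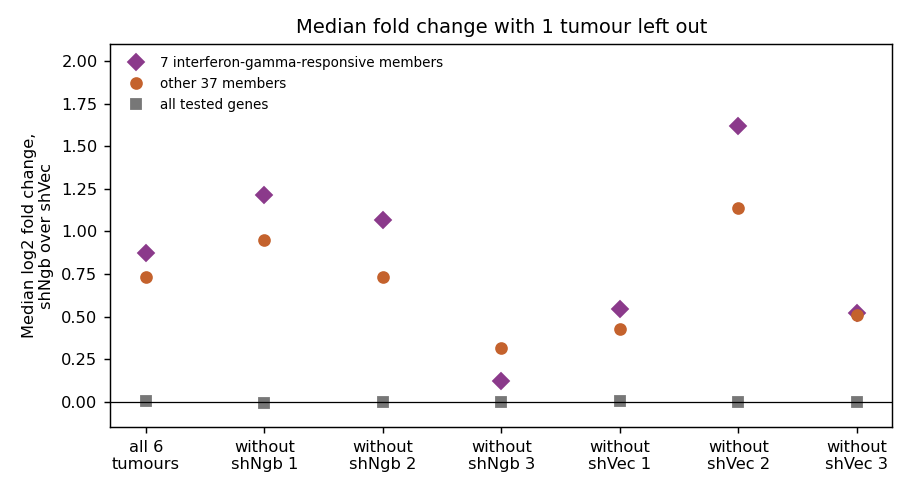
Median log2 fold change (shNgb over shVec, vertical axis) with all 6 tumours and with each tumour left out, for the 7 members that answer strongly to interferon gamma, the other 37 members and all 15203 tested genes. Both member medians are lowest without shNgb 3 (0.12 and 0.32) and highest without shVec 2 (1.62 and 1.14), while the median of all genes stays near 0.

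Among the sensors of foreign nucleic acid, all 4 stood higher in shNgb on average and 0 of 4 had an unadjusted p under 0.05 in edgeR (median log2 fold change 0.62). Ifih1, which encodes the long double-stranded RNA sensor MDA5, had 2.65, 3.62 and 5.33 CPM in shNgb tumours, against 1.09, 3.02 and 2.29 CPM in shVec tumours. The values of shNgb 1 and shVec 2 crossed, and the log2 fold change was 0.86 (SE 0.40, unadjusted p = 0.0612). Ddx58, the RIG-I sensor of 5′-triphosphate RNA, had 15.8, 22.2 and 22.3 CPM in shNgb tumours and 13.1, 20.2 and 13.5 CPM in shVec tumours. Zbp1, a sensor of Z-form nucleic acid, had 4.24, 7.24 and 14.98 CPM in shNgb tumours and 2.73, 8.06 and 3.05 CPM in shVec tumours. In both genes shVec 2 lay within the shNgb range. Dhx58, which encodes LGP2, a regulator of the other RNA sensors, differed least (log2 fold change 0.31, SE 0.24).

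The transcription factors were all above 0, with a median log2 fold change of 0.49 and 0 of 4 at an unadjusted p under 0.05. Stat2, the subunit that gives the type I interferon complex its activation domain, had 10.7, 16.3 and 20.2 CPM in shNgb tumours, against 7.52, 12.95 and 10.5 CPM in shVec tumours. Only shNgb 1 fell inside the shVec range, and the log2 fold change was 0.61 (SE 0.27, unadjusted p = 0.0524). Irf7, the factor that amplifies interferon production, had 8.44, 10.6 and 26.2 CPM in shNgb tumours and 5.38, 12.3 and 3.92 CPM in shVec tumours, so that shNgb 3 stood apart from the other 5. Irf1, an early target of interferon gamma, was the most abundant factor per length at 24.7 ± 6.16 FPKM in shNgb and 19.6 ± 3.77 FPKM in shVec (SD, n = 3 each; FPKM are reads scaled to gene length and library size, as deposited). Its log2 fold change was 0.34 (SE 0.20). Irf9, the DNA-binding partner of Stat2, had a log2 fold change of 0.38 (SE 0.29).

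Effectors that bind RNA or act on nucleotides formed the largest group, with 12 of 13 above 0 and a median log2 fold change of 0.78. Ifit1, which binds viral RNA lacking the cap methylation of the host, had 5.74, 6.87 and 9.16 CPM in shNgb tumours, against 2.14, 5.24 and 2.65 CPM in shVec tumours. Every shNgb tumour lay above every shVec tumour, with shVec 2 just under shNgb 1. A log2 fold change of 1.12 was fitted (SE 0.35, 95% interval 0.33 to 1.92; edgeR, unadjusted p = 0.0111, adjusted p = 0.9997). It ran from 0.88 to 1.60 with single tumours left out, at unadjusted p-values of up to 0.0462. Ifit1 lies on chromosome 19 (GRCm38, 34640871 to 34650009, plus strand). The sister genes Ifit2 and Ifit3 had log2 fold changes of 0.89 (SE 0.51) and 1.04 (SE 0.66) with overlapping groups.

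The oligoadenylate synthetases make the 2′-5′ linked oligoadenylates that activate RNase L. Oas2 had 2.03, 2.30 and 4.29 CPM in shNgb tumours and 1.002, 2.22 and 1.43 CPM in shVec tumours, with shNgb 1 below shVec 2 (log2 fold change 0.90, SE 0.40, unadjusted p = 0.0522). Oas3 had 24, 43 and 91 reads in shNgb tumours, against 4, 28 and 17 reads in shVec tumours, with a wide interval of the fold change (log2 1.40, 95% interval -0.12 to 2.92). Oas1a, Oasl1 and Oasl2, a synthetase and a pair of related proteins, had log2 fold changes of 0.80 (SE 0.40), 0.51 (SE 0.30) and 0.73 (SE 0.37). Rsad2, encoding viperin, and Cmpk2, its neighbour and a nucleotide kinase, lay at 0.75 (SE 0.50) and 0.78 (SE 0.65). All of these groups overlapped.

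A few members differed little between the group means. Adar, which edits adenosine to inosine in double-stranded RNA, was the only gene of the set below 0, with 48.1, 51.5 and 55.1 CPM in shNgb tumours and 53.3, 62.9 and 59.6 CPM in shVec tumours. Only shNgb 3 entered the shVec range, and the log2 fold change was -0.18 (SE 0.10, unadjusted p = 0.0855). Eif2ak2, the kinase PKR, lay at a log2 fold change of 0.15 (SE 0.11), and Isg20, an exonuclease and the most abundant of this group per length (8.03 ± 2.18 FPKM in shNgb, 7.17 ± 1.36 FPKM in shVec), one of 0.17 (SE 0.22). The highest tumour exceeded the lowest by under 2-fold in 10 of the 44 genes, these 3 among them, and by over 4-fold in 23.

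The 8 GTPases were all above 0, with a median log2 fold change of 0.90, and as a role group had the widest spread within groups (median SD 1.02 on the log2 scale). Mx1, a dynamin-like GTPase that blocks influenza-type viruses, had 1.59, 2.63 and 3.26 CPM in shNgb tumours, against 0.501, 1.51 and 0.611 CPM in shVec tumours. The groups did not overlap, and shVec 2 lay just under shNgb 1. The log2 fold change of 1.52 (SE 0.47, 95% interval 0.46 to 2.58; edgeR, unadjusted p = 0.0102, adjusted p = 0.9997) was the largest of the set. It ran from 1.23 to 2.16 with single tumours left out, at unadjusted p-values of up to 0.0419. Mx1 lies on chromosome 16 (GRCm38, 97447035 to 97462907, minus strand). The counts behind it were small, 33, 64 and 85 reads in shNgb libraries and 11, 30 and 12 in shVec libraries. Mx2, annotated as a polymorphic pseudogene in the mouse reference, had a log2 fold change of 0.45 (SE 0.56).

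The immunity-related and guanylate-binding GTPases, which attack the vacuoles of intracellular parasites and are strongly induced by interferon gamma, include the pair with the highest SD within groups, Igtp (1.52 on the log2 scale) and Irgm2 (1.26). Igtp had 7.23, 15.7 and 51.0 CPM in shNgb tumours and 4.19, 30.4 and 3.41 CPM in shVec tumours, a ratio of 14.97 between the highest and lowest tumour. The second highest value was thus a vector tumour, and the log2 fold change of 0.97 had a 95% interval of -1.61 to 3.54. Irgm2 had 4.63, 12.9 and 33.3 CPM in shNgb tumours and 3.37, 15.8 and 3.82 CPM in shVec tumours. Gbp2, the most abundant GTPase per length (13.05 ± 9.79 FPKM in shNgb, 8.81 ± 7.04 FPKM in shVec), had 12.7, 25.9 and 60.9 CPM in shNgb tumours and 11.3, 42.8 and 12.6 CPM in shVec tumours. The same order, shNgb 3 and then shVec 2, held for all 3. Irgm1, a regulator of the other immunity-related GTPases, had a log2 fold change of 0.66 (SE 0.51), Gbp3 0.93 (SE 0.78) and Gbp5 0.87 (SE 0.70).

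**Figure D4:**
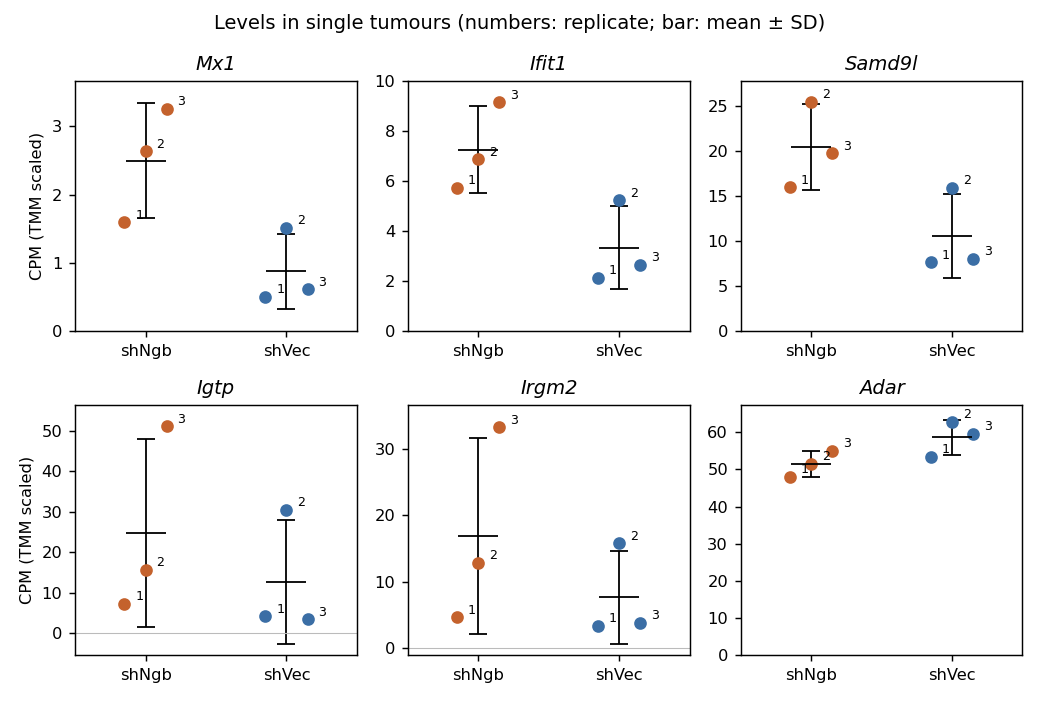
CPM (vertical axes, linear) of 6 genes in the 3 shNgb tumours (orange) and the 3 shVec tumours (blue), each point numbered by replicate, with mean ± SD. The groups do not overlap in Mx1, Ifit1 and Samd9l, whereas in Igtp and Irgm2 shVec 2 lies between shNgb 2 and shNgb 3, and in Adar the shVec mean is the higher.

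The 7 members that answer strongly to interferon gamma (Irf1, Gbp2, Gbp3, Gbp5, Igtp, Irgm1 and Irgm2) can be set beside the other 37. Their summed level was 142, 209.7 and 407 CPM in shNgb tumours and 125, 266 and 113 CPM in shVec tumours. The pooled SD between tumours of a group had a median of 1.08 on the log2 scale in the 7 genes and 0.52 in the 37. The subsets overlapped in this: Irf1, the only member of the 7 that is not a GTPase, had 0.31, and Ifi44, outside them, 1.24. The median log2 fold changes, 0.87 and 0.73, lay close together, and the difference between the subsets was not tested. The ISRE core was found in the promoters of 6 of the 7, and Irf1 held the GAS letters instead.

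Of the genes for ISG15 conjugation, ubiquitin transfer and ADP-ribosylation, all 8 were above 0, with a median log2 fold change of 0.66. Herc6, the ligase that attaches ISG15 in the mouse, had 4.92, 6.75 and 10.7 CPM in shNgb tumours, against 3.01, 5.59 and 4.68 CPM in shVec tumours. The groups overlapped, and the edgeR test lay at the edge of 0.05 (log2 fold change 0.75, SE 0.33, unadjusted p = 0.0499, adjusted p = 0.9997). Without shNgb 3 the log2 fold change was 0.40 (unadjusted p = 0.229), and the unadjusted p was also above 0.05 without shNgb 2 (0.0689), shVec 1 (0.156) or shVec 3 (0.0911). Isg15, the ubiquitin-like modifier itself, had 9.16, 7.69 and 14.7 CPM in shNgb tumours and 5.56, 9.93 and 3.11 CPM in shVec tumours (log2 fold change 0.76, SE 0.42). Here shNgb 1 and shNgb 2 both lay below shVec 2.

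Usp18, which removes ISG15 and dampens receptor signalling, had a log2 fold change of 0.78 (SE 0.60). Trim21, an antibody receptor of the cytosol with ligase activity, had 3.81, 5.35 and 7.32 CPM in shNgb tumours and 2.096, 4.94 and 2.95 CPM in shVec tumours (log2 fold change 0.73, SE 0.36). Dtx3l and Parp9, partners in one ADP-ribosylating complex, had log2 fold changes of 0.37 (SE 0.19) and 0.18 (SE 0.17), and Parp14, a related enzyme, 0.59 (SE 0.48). Trim25, the ligase that activates RIG-I and the second most abundant member per length, was nearly level at 141 ± 22.8 CPM in shNgb and 133 ± 18.1 CPM in shVec (SD, n = 3 each).

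Among the other effectors, all 7 were above 0 with a median log2 fold change of 0.73. Samd9l, a restriction factor of poxviruses, had 16.0, 25.4 and 19.7 CPM in shNgb tumours, against 7.65, 15.9 and 7.99 CPM in shVec tumours. The lowest shNgb value barely exceeded the highest shVec value, and this was 1 of 2 members whose highest tumour was shNgb 2 instead of shNgb 3, beside Eif2ak2. A log2 fold change of 0.96 was fitted (SE 0.31; edgeR, unadjusted p = 0.0161, adjusted p = 0.9997). It ran from 0.77 to 1.38 with single tumours left out, with unadjusted p-values above 0.05 without shNgb 2 (0.0571), shVec 1 (0.0529) or shVec 3 (0.0556). Samd9l lies on chromosome 6 (GRCm38, 3372257 to 3399572, minus strand).

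Bst2, or tetherin, which holds budding virus at the cell surface, was the most abundant member per length at 87.2 ± 34.4 FPKM in shNgb and 60.1 ± 27.3 FPKM in shVec (SD, n = 3 each). Its tumours read 47.3, 80.7 and 110.3 CPM in shNgb and 43.7, 82.9 and 36.9 CPM in shVec, with broad overlap. Xaf1, a proapoptotic interferon target, had 4.29, 4.07 and 9.66 CPM in shNgb tumours and 0.820, 5.29 and 1.83 CPM in shVec tumours (log2 fold change 1.19, SE 0.67). Ifi35 lay at 0.36 (SE 0.20), Rtp4 at 0.79 (SE 0.54), Ifi44 at 0.73 (SE 0.88) and Ifi27 at 0.26 (SE 0.46).

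Per length, the set spanned from Bst2 at a mean of 73.6 FPKM over the 6 tumours to Oas3 at 0.208 FPKM. Trim25 (23.7 FPKM), Irf1 (22.2 FPKM), Ifi27 (12.5 FPKM) and Isg15 (10.97 FPKM) followed Bst2. The first 2 of these differed by less than their spread between tumours, and so did the last 2. The 2 members with the largest fold changes sat at the low end, with Mx1 at 0.441 FPKM, ranked 41 of 44, and Oas3 last.

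The interferons themselves were nearly absent from the reads. Of 21 ligand genes in the matrix, 15 had no read in any library, which allows up to 3 reads or 0.115 to 0.153 CPM per library for counting error alone, and none passed the filter for testing. Ifnb1 had 3, 0 and 2 reads in shNgb libraries and 2, 0 and 1 in shVec libraries, and Ifna13 had 1, 4 and 0 in shNgb libraries and 0, 3 and 4 in shVec libraries. Ifnab, Ifne and Ifnk had at most 4 reads in any library. Ifng, the gene of interferon gamma, had 5, 5 and 54 reads in shNgb libraries, against 1, 16 and 3 in shVec libraries. Its 2 highest libraries, shNgb 3 and shVec 2, were also the 2 highest for Igtp, Irgm2 and Gbp2. That order is not particular to these genes, as the sum of all 44 had it too (1289 and 971 CPM). A part of Ifng in these levels was not tested.

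Receptors differed little in level. The 5 tested receptor chains had a median log2 fold change of 0.07, with 0 of 5 at an unadjusted p under 0.05 in edgeR. Ifnar2 stood at 26.9 ± 0.703 CPM in shNgb and 26.2 ± 2.66 CPM in shVec, Ifngr1 at 38.4 ± 6.49 and 36.6 ± 4.64 CPM, and the kinase Jak1 at 129 ± 5.70 and 126 ± 3.91 CPM (SD, n = 3 each). Il10rb, the receptor chain shared with interferon lambda, had 6.80, 7.28 and 9.16 CPM in shNgb tumours and 5.10, 6.75 and 6.31 CPM in shVec tumours, without overlap. The same held, higher in shNgb, for 3.67% of all tested genes.

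Upstream of interferon production, 10 of 13 tested adaptors, kinases and factors were above 0 (median log2 fold change 0.14), against 50.9% of all tested genes. In edgeR 0 of the 13 had an unadjusted p under 0.05. In 2 of the 13, Tbk1 and Irf3, the groups did not overlap, higher in shNgb, against 3.67% of all tested genes. Ikbke, an inducible kinase of this pathway, had the smallest p, with 6.65, 5.72 and 10.2 CPM in shNgb tumours and 3.10, 7.31 and 3.61 CPM in shVec tumours (log2 fold change 0.69, SE 0.36). Of 8 inhibitors of the pathway, 5 were above 0 (median 0.13) and again 0 had an unadjusted p under 0.05. Ptpn6, a phosphatase of blood cells, had the smallest p there, at 21.0 ± 9.35 CPM in shNgb and 13.5 ± 4.08 CPM in shVec.

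A wider list of 54 further interferon-inducible genes, read in the same tumours, stood in the same direction. Its summed level was likewise highest in shNgb 3 (1548 CPM) and next in shVec 2 (1173 CPM). Genes that share the tumours are not replicates, so the list is not separate support. Of its 51 tested genes, 49 were above 0, and the median log2 fold change was 0.55. At an unadjusted p under 0.05 in edgeR, 2 were higher in shNgb, against 1.35% of all tested genes, and 0 were lower, against 1.22%. Those 2 were Phf11b (2.098 ± 1.07 CPM in shNgb, 0.825 ± 0.274 CPM in shVec; log2 fold change 1.35, SE 0.46) and Ciita, the transactivator of MHC class II genes (5.12 ± 2.29 and 2.66 ± 0.811 CPM; 0.95, SE 0.39). Ifi204, a DNA-binding member of the p200 family, followed with 11.8 ± 4.17 CPM in shNgb and 7.28 ± 2.07 CPM in shVec. Cxcl9, a chemokine that interferon gamma induces and that was chosen after its values were seen, had 8.34, 18.4 and 81.3 CPM in shNgb tumours and 4.24, 38.1 and 5.75 CPM in shVec tumours.

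Markers of immune cells shared part of this tumour order. Summed over 15 T and NK cell markers, the level was 7.43, 28.1 and 53.1 CPM in shNgb tumours and 9.11, 30.6 and 8.25 CPM in shVec tumours. All 12 tested markers were above 0 (median log2 fold change 1.07), 0 of them at an unadjusted p under 0.05. Trbc2, a T cell receptor chain, had 7, 39 and 54 reads in shNgb libraries and 4, 14 and 0 in shVec libraries. Markers without a read numbered 1, 1 and 0 of 15 in shNgb libraries and 2, 1 and 3 of 15 in shVec libraries, among them Klrb1c, an NK cell marker, with reads in shNgb 3 only.

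The 11 macrophage and monocyte markers summed to 123, 250.2 and 319 CPM in shNgb tumours and 99.4, 198 and 163 CPM in shVec tumours, and each had reads in every library. All 11 were above 0 (median log2 fold change 0.57), and 2 were higher at an unadjusted p under 0.05 in edgeR, against 1.35% of all tested genes. Those were Ccr2, the monocyte homing receptor, with 5.01, 9.26 and 18.2 CPM in shNgb tumours and 3.46, 4.59 and 3.41 CPM in shVec tumours, and Fcgr1, the high-affinity IgG receptor (8.06 ± 2.76 and 4.48 ± 1.74 CPM). The 8 dendritic cell markers summed to 8.25, 17.0 and 23.5 CPM in shNgb tumours and 7.43, 10.5 and 11.6 CPM in shVec tumours. Siglech, a plasmacytoid dendritic cell marker, had at most 9 reads in a library.

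The lists of other cell types did not all share that order. The 5 endothelial markers summed to 60.2, 57.5 and 69.8 CPM in shNgb tumours and 62.9, 65.6 and 68.3 CPM in shVec tumours. The 9 glioma and progenitor markers summed to 5184, 5416 and 5226 CPM in shNgb tumours and 5718, 5460.0 and 5124 CPM in shVec tumours. Only 3 of these 9 passed the filter for testing, so that few genes set that sum, which does not measure glioma cell content. Nes, an intermediate filament of progenitor cells, stood at 414 ± 28.7 CPM in shNgb and 506 ± 35.3 CPM in shVec (SD, n = 3 each), without overlap (edgeR unadjusted p = 0.00652). The 6 fibroblast markers summed to 2369, 1897 and 1117 CPM in shNgb tumours and 1953, 1633 and 1728 CPM in shVec tumours. Of 5 tested, 4 were above 0, and Col1a1 and Col1a2, chains of type I collagen, stood higher in shNgb at unadjusted edgeR p-values of 0.0076 and 0.0185. The 6 neutrophil markers summed to 11.7, 2.71 and 5.13 CPM in shNgb tumours and 2.64, 3.63 and 2.04 CPM in shVec tumours, with Ly6g, a defining marker, at 0 reads in every library. Of these, Csf3r, the receptor of granulocyte colony-stimulating factor, had 3.91, 2.26 and 4.48 CPM in shNgb tumours and 1.09, 1.71 and 1.32 CPM in shVec tumours, without overlap (log2 fold change 1.37, SE 0.34, edgeR unadjusted p = 0.00292). The 6 B and plasma cell markers stayed under 4 CPM in sum in every tumour, with Ms4a1, a B cell marker, at 0 in 5 of the 6 libraries. The 1 tested marker of that list, Jchain, the joining chain of secreted antibodies, had 7, 46 and 67 reads in shNgb libraries and 15, 3 and 10 in shVec libraries (log2 fold change 1.83, SE 0.75, edgeR unadjusted p = 0.041). None of the markers passed an adjusted p under 0.05, as 0% of all tested genes did in edgeR. An unadjusted p under 0.05 was found in 1.35% of all tested genes higher in shNgb and in 1.22% lower. Groups did not overlap in 3.67% higher in shNgb and in 3.43% lower. The part of any of these cell types in the levels of the interferon-stimulated genes was not tested.

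**Figure D5:**
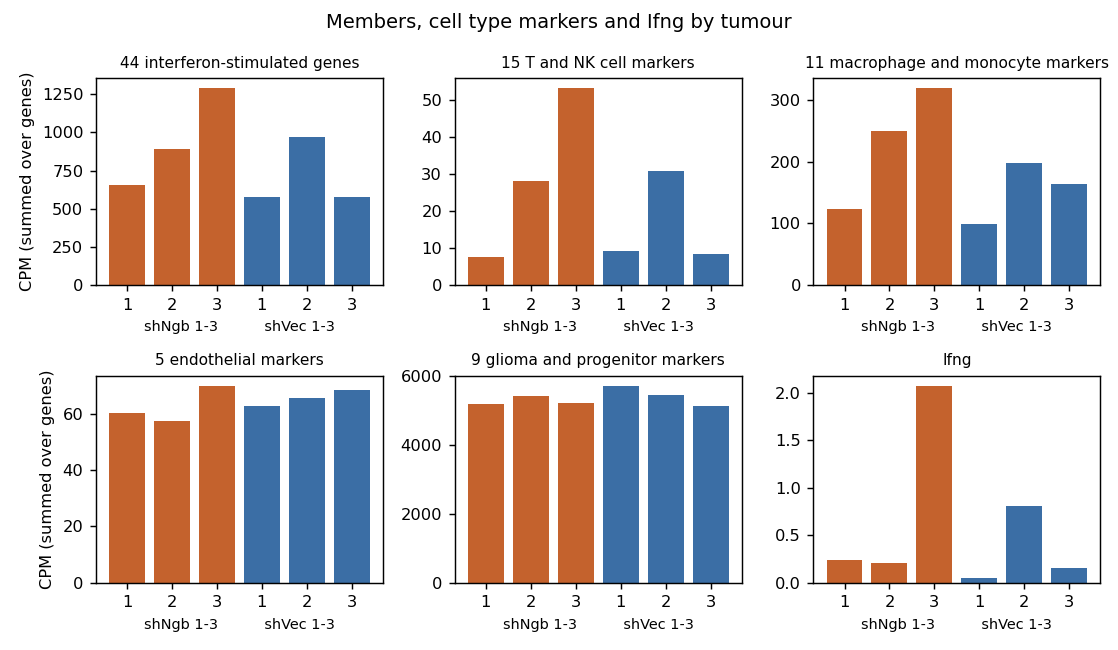
CPM by tumour (shNgb 1 to 3 in orange, shVec 1 to 3 in blue), summed over the 44 interferon-stimulated genes, over 4 lists of cell type markers, and for Ifng alone, all on axes from 0. The members, the T and NK cell markers and Ifng are highest in shNgb 3 and next in shVec 2. The macrophage and monocyte markers are highest in shNgb 3 and next in shNgb 2. The endothelial and glioma sums vary little, and few genes set the glioma sum, as only 3 of its 9 markers were tested.

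Counts of some members could be shared with other genes. Transcripts of Ifit3 matched Ifit3b at 97.8% identity over 1700 bases, Oas1a matched Oas1g at 97.6% over 1861 bases, Mx2 matched Mx1 at 95.3% over 843 bases, and Isg15 matched the gene AC151275.1 at 95.2% over 482 bases. The copies Ifit3b and Oas1g had 7 to 37 and 9 to 62 reads per library, and AC151275.1 at most 4. Igtp and Irgm2 share 162 exonic bases on the same strand, and Dtx3l and Parp9 share 458 on opposite strands, which the library kit does not separate. Adar shares 1365 exonic bases (16.81%) with Chrnb2 on the opposite strand, which had 20 to 48 reads per library, against 997 to 1438 for Adar. Herc6, Rtp4 and Ifi35 share 13.66%, 13.89% and 16.79% of their exonic bases with Gm45193, Gm45338 and Gm11626, which had at most 4 reads per library. The counts of these genes are uncertain to that extent.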

How the data were processed

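Per the labels' protocols, RNA of the tumours was extracted with Trizol and sequenced from Illumina TruSeq RNA libraries. The submitters' processing notes list Bowtie 0.12.2 and 2 builds, mm8 and mm10, but not what each was used for. The sources used here do not name the counting tool or the annotation. The authors deposited whole-number read counts per Ensembl gene ID and FPKM per library. Counts were tested; FPKM served only to order genes by level.

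Symbols, coordinates and overlaps came from GENCODE M21 (GRCm38); Cgas stood in for its older symbol Mb21d1. Counts were filtered with edgeR's default (edgeR 4.0.16, R 4.3.3), scaled by TMM and compared with the robust quasi-likelihood test, shNgb over shVec, with Benjamini-Hochberg adjustment over 15203 genes and 95% intervals from the F statistic. The design text calls the tumours of a group independent but not whether each grew in its own mouse, and the p-values reflect only how these 6 tumours vary. No library pair agreed within sampling noise (chi-square per gene at least 9.26, where 1 would be expected from counting). CPM used TMM-scaled totals. Copies were sought with blastn at 95% identity over 250 bases. The fit was also run on simulated counts with known changes, and the share it recovered is not reported here. Alternatives were leaving out each tumour, a threshold of 0.1, a block for the replicate number, limma-voom (limma 3.58.1), DESeq2 1.42.0, 2 other filters and RLE scaling.

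The members, gene lists and rules were chosen with earlier results of these data known. The naming rule took, per role, the 3 members of smallest p, the most abundant per length and any with an unadjusted p under 0.05, and up to 3 genes of smallest p from other lists; other genes named were chosen after their values were seen. Some genes of the lists are not reported here.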

Additional observations from a re-analysis of the deposited data

How the results depend on the processing

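Of the 44 interferon-stimulated genes, 0 passed an adjusted p under 0.05 under any alternative run, and 0 passed under 0.1. Over all genes, where edgeR called 0, DESeq2 called 5, the fit without a filter 3 and the fit with the replicate block 1; the cause was not tested. With RLE scaling, the other filters, DESeq2, limma-voom or the block, the median log2 fold change of the set stayed between 0.73 and 0.77, with 43 genes above 0. With single tumours left out it ran from 0.23 to 1.20, with 37 to 43 genes above 0 and 0 called among members or all genes. Without shNgb 3 the log2 fold changes of Gbp2 (-0.20), Isg20 (-0.066) and Trim25 (-0.052) reversed; with single tumours left out they ran up to 1.47, 0.33 and 0.20. Of 264 values of the 22 members named by rule under these alternatives, the other 261 kept their sign, which says nothing of their size. Whether the replicate numbers pair the tumours cannot be told from 3 tumours a group. Deviations of same-numbered tumours correlated at 0.26, -0.14 and -0.10, and those of differently numbered tumours at -0.26 to 0.33. With the replicate block 12 members and 2.8% of all genes had an unadjusted p under 0.05, against 4 and 2.58% without it, and the median was 0.73. With 3 tumours a group and this spread, 34 of the 44 intervals reach a fold of 2, so a fold of 2 lay within the error of those genes. Counts were low for some members: Oas3 had as few as 4 reads in a library and Cmpk2 as few as 9.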
